A study of Homo sapiens with 3 samples.

Results

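Small nucleolar RNAs (snoRNAs) and small Cajal body RNAs (scaRNAs) were examined in LNCaP cells, an androgen-responsive established line from a human prostate carcinoma metastasis, 72 hours after siRNA transfection. The members are the genes with a symbol starting with SNORA, SNORD or SCARNA that a probe set of the array names alone. They number 192 of 18417 genes: 61 of the H/ACA class (SNORA), 115 of the C/D class (SNORD) and 16 Cajal body RNAs (SCARNA). The 3 arrays comprise 1 from cells given a negative control siRNA and 1 each from cells given siSE1 or siSE2, siRNAs directed against the SLC45A3-ELK4 chimeric transcript. All cells were of the same line and were transfected with RNAiMAX. On the array titled siSE2, another label field names siSE1, and the title was followed. Separate cultures are not stated, so the spread between the siRNA arrays may be technical, and in such bulk RNA fewer cells of a type and less RNA per cell cannot be told apart.

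H/ACA snoRNAs guide pseudouridylation of ribosomal RNA in a particle built on the pseudouridine synthase DKC1, and C/D snoRNAs guide ribose methylation in a particle built on the methyltransferase FBL. Cajal body RNAs of either type guide the same modifications on the spliceosomal small nuclear RNAs. In human cells most of these RNAs are cut from introns of host genes, many of which encode ribosomal proteins or are noncoding transcripts that carry little else. A probe set inside such a gene reads the mature small RNA together with any unspliced host RNA, and the array values do not tell these apart.

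An intronic snoRNA is transcribed from the start site of its host, and the starts of some noncoding hosts are shown first for this reason. Each window below runs from 10 bases before to 19 after the listed first base of the transcript (RefSeq, build GRCh38.p14). Capitals mark a pyrimidine run at the start, defined as a C followed by at least 4 further bases that are each C or T, a feature of many genes of the translation apparatus.
SNHG5, host of SNORD50A, chr6:85678714-85678743, minus strand: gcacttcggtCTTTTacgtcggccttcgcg
ZFAS1, host of SNORD12C, chr20:49278632-49278661, plus strand: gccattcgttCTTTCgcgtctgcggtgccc
GAS5, host of SNORD44 and SNORD81, chr1:173869026-173869055, minus strand: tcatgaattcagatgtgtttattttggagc
SNHG14, host of the SNORD116 copies, chr15:24823598-24823627, plus strand: gtcctcctgcgccgacctcgaatgcggtcc
The SNHG5 and ZFAS1 windows hold such a run of 5 bases, and those of GAS5 and SNHG14 hold none at the listed base. Only 1 start was listed for each of these hosts, so a run at another start in use would be missed. Of the 93 genes found to hold a member alone, 77 had a listed start, and 26 of them (33.8%) had the run, against 5.14% of all 27305 genes listed. Among ribosomal protein hosts 10 of 11 had it, among noncoding hosts, the kind shown above, 4 of 14, and among the other hosts 12 of 52. The 28 tested members in hosts with the run had a median log2 difference from control of -0.13 with siSE1, and the 62 in listed hosts without it -0.17. With siSE2 the medians were -0.0025 and -0.048 in the same order. The 62 members in hosts without the run include the 6 tested members in GAS5.

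Of the 192 members, 117 had a mean value at or above the filter level of log2 5.12, the 30th percentile of all genes, and were tested together with all 12892 genes above it. They comprise 43 of the H/ACA, 61 of the C/D and 13 of the Cajal body members. The arrays were alike in level, with medians of 5.80 (control), 5.84 (siSE1) and 5.84 (siSE2). Of the luminal prostate markers, all 6 that were measured lay above the filter level, KLK3, which encodes prostate-specific antigen, among them at 10.04 on the control array. Among blood cell markers 1 of 5 (CD14) lay above it, and PTPRC, which defines leukocytes, read 3.17. Of 5 fibroblast markers the 3 collagen genes lay above it, while DCN and LUM read 2.80 and 2.41. On the control array COL1A1, COL1A2 and COL3A1 read 6.94, 5.52 and 5.43. Of 2 basal epithelial markers KRT14 lay above the filter level and KRT5 below it, with 5.90 and 4.92 on the control array.

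SNORA14A, an H/ACA snoRNA, was the only member that passed the test over all genes. On the control, siSE1 and siSE2 arrays it read 6.90, 7.95 and 7.98. The siRNA arrays lay close together and well above the control. The mean log2 difference was 1.06 ± 0.14 (SE, n = 2 against 1), with a 95% interval of 0.75 to 1.38 in log2 (limma, adjusted p = 0.0207, range 0.0104 to 0.0927 over the alternatives). That difference is a 2.09-fold rise. With no filter on dim genes the call was lost (limma, adjusted p = 0.0927). Of all genes tested 0.248% passed upward, against 1 of 117 members, and 0.714% passed downward, against 0 members. At an unadjusted p under 0.05 (limma), 7 members were higher and 10 lower, against 6.46% and 11.3% of all genes. These shares of members are near those of all genes. The fit has 1 residual degree of freedom, left by the gap between siSE1 and siSE2. The variation of the single control array was not measured, and it enters the difference with both siRNAs.

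The relative of SNORA14A and the gene that holds it had smaller differences. SNORA14B, chosen after its values were seen, read 5.18, 5.09 and 5.35 on the control, siSE1 and siSE2 arrays, so the siRNA arrays lay on either side of the control. SNORA14A lies within POR, which encodes the electron donor of microsomal cytochromes P450. POR read 8.43, 8.27 and 8.30 in the same order, slightly lower with both siRNAs. The difference of SNORA14A thus exceeded that of POR by 1.20 with each siRNA (log2). Of the 61 tested members with a measured host, none lay as far above its host. SNORA14A was singled out by its own rise, so this rank largely follows from that choice.

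**Figure D1:**
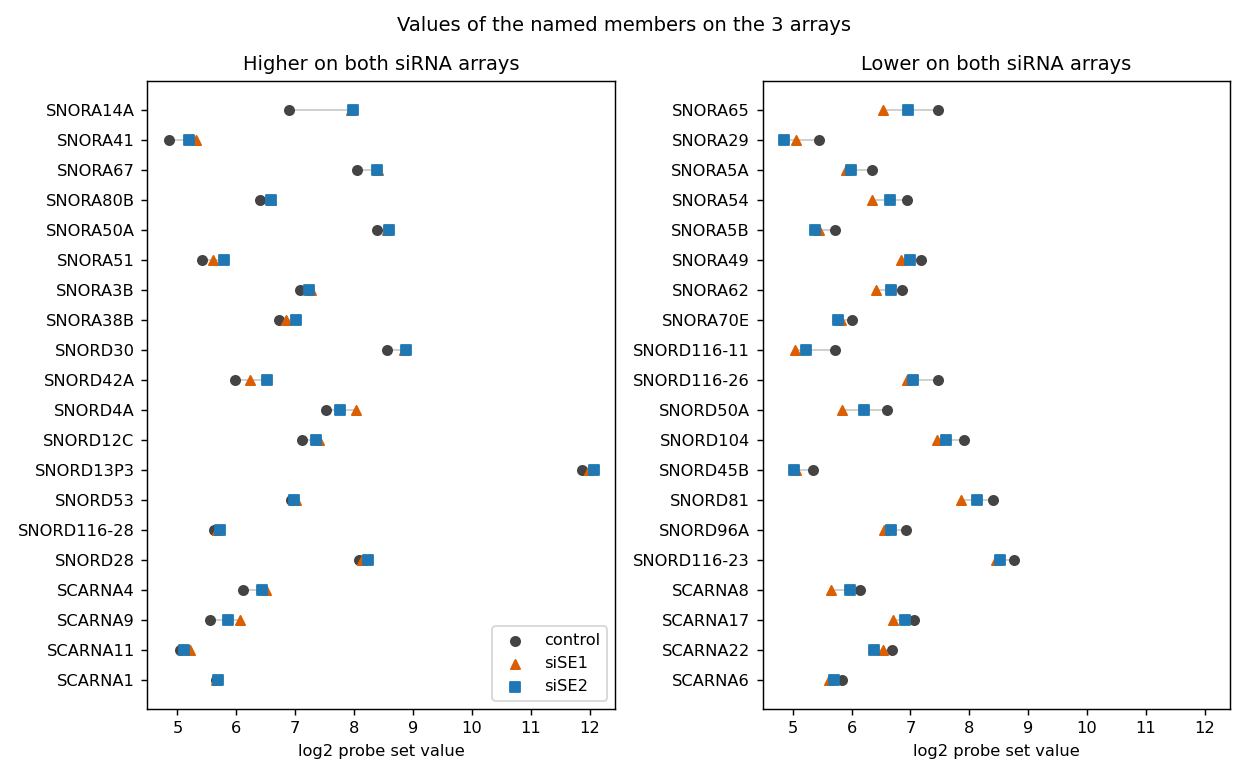
Log2 values of the members named by rank on the control (circle), siSE1 (triangle) and siSE2 (square) arrays, 1 array each, for members higher (left) and lower (right) with both siRNAs. SNORA14A moves from 6.90 to 7.95 and 7.98, while the gap between control and siRNA arrays is smaller for the others on the left; on the right SNORA65 shows the widest gap, from 7.46 to 6.54 with siSE1.

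Among the other H/ACA members that were higher with both siRNAs, the gaps from control were small. In the order control, siSE1, siSE2, SNORA41 read 4.85, 5.32 and 5.20, and SNORA67 read 8.06, 8.40 and 8.38. Their differences of 0.41 ± 0.14 and 0.33 ± 0.14 (SE) did not pass (limma, adjusted p = 0.191 and 0.257). On the control array SNORA41 lay below the filter level of 5.12, and it passed the filter only through the siRNA arrays. Its place among the higher members thus depends on the filter. SNORA41 lies in EEF1B2, an elongation factor gene, whose own differences were 0.17 with siSE1 and 0.38 with siSE2. SNORA80B, SNORA50A, SNORA51, SNORA3B and SNORA38B followed, with mean differences from 0.17 (SNORA3B) to 0.27 (SNORA51). SNORA80B lies in ODC1, the gene of the first enzyme of polyamine synthesis, and SNORA51 in NOP56, which encodes a core protein of the C/D particle.

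SNORA65 had the most negative mean difference among the tested H/ACA members. In the same order of arrays it read 7.46, 6.54 and 6.95. Both siRNA arrays lay below the control, siSE1 further, and the difference of -0.72 ± 0.18 (SE) did not pass (limma, adjusted p = 0.0929). Its host RPL12, a gene of the large ribosomal subunit, differed by only -0.16 with siSE1 and -0.12 with siSE2. SNORA29 read 5.45, 5.06 and 4.85, a difference of -0.49 ± 0.15. On both siRNA arrays SNORA29 lay below the filter level of 5.12, and it passed the filter only through the control array. Its host TCP1, a chaperonin subunit gene, differed by -0.06 and -0.15. SNORA54 read 6.94, 6.34 and 6.65, and SNORA62 6.86, 6.41 and 6.67, both lower with siSE1 than with siSE2. SNORA49 and SNORA70E differed by -0.27 and -0.21 on average.

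SNORA5A and SNORA5B, which lie in the same gene, went against their host. The 3 arrays gave SNORA5A 6.34, 5.91 and 5.98, and SNORA5B 5.72, 5.45 and 5.37. Both were lower on each siRNA array than on the control, without passing (limma, adjusted p = 0.195 and 0.296). Their host TBRG4, which encodes a mitochondrial RNA-binding protein, was higher on both, with differences of 0.34 and 0.26. The third member in TBRG4, SNORA5C, differed by -0.09 with siSE1 and 0.07 with siSE2.

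C/D members were mostly lower with siSE1 and less so with siSE2. With siSE1, 48 of the 61 tested C/D members (78.7%) read below the control, against 53.2% of all genes tested, and with siSE2 36 did (59.0%), against 52% of all genes. The median difference of the class was -0.18 with siSE1 and -0.03 with siSE2, beside medians over all genes of -0.02 and -0.01. H/ACA members had medians of -0.10 and 0.05, and Cajal body RNAs -0.12 and -0.03. The H/ACA class had 27 of 43 members below the control with siSE1 and 19 with siSE2, the Cajal body class 9 and 7 of 13. With both siRNAs, 34 of 61 C/D members and 57 of all 117 tested members read below the control, against 41.7% of all genes. Both siRNAs are set against the same control array, which all these values share. With 1 array for each siRNA these class values have no test.

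The siRNA arrays were also set against each other, which leaves out the control. siSE1 read below siSE2 for 51 of 61 C/D members (83.6%), for 30 of 43 H/ACA members (69.8%) and for 9 of 13 Cajal body RNAs, against 51% of all genes. The gaps were small: 2 members, both of the C/D class, differed by at least 1.5-fold between the siRNA arrays, against 1.16% of all genes. Those were SNORD59B and SNORD44.

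**Figure D2:**
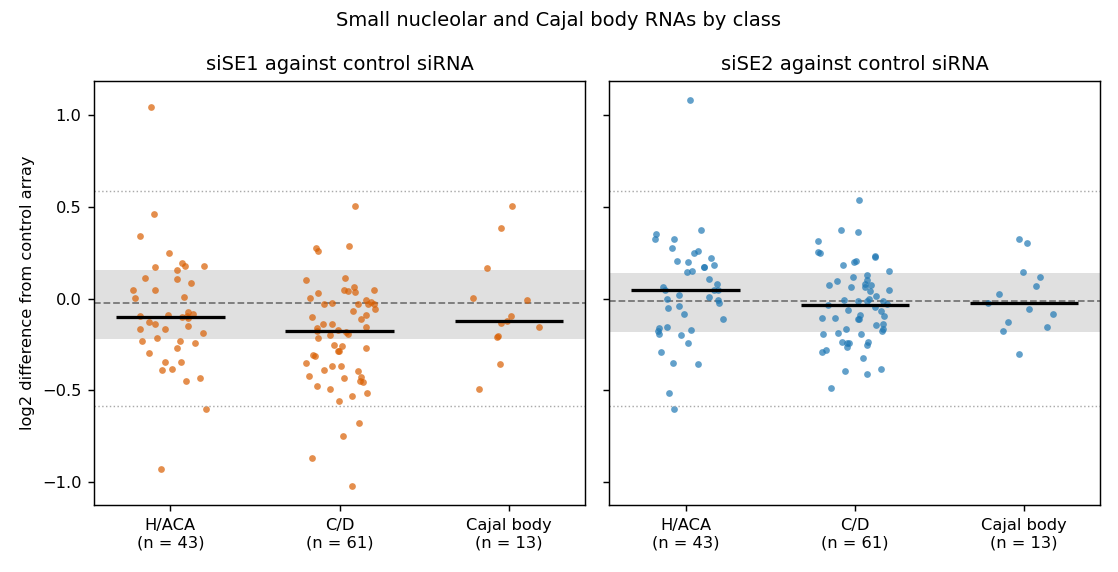
Log2 difference from the control array of each tested member (points) by class, for siSE1 (left) and siSE2 (right), with the class median as a black bar. The grey band and dashed line give the quartiles and median of all 12892 genes, and dotted lines mark 1.5-fold; the C/D median lies at -0.18 with siSE1 and at -0.03 with siSE2, and SNORA14A lies at the top in both.

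Few members reached 1.5-fold. With siSE1, 1 member was at least 1.5-fold higher (1.45% of all genes were) and 6 lower (4.27% of all genes). With siSE2, 1 was higher (1.2% of all genes) and 1 lower (2.82%). SNORA14A was the 1 higher with both (0.582% of all genes), and 0 tested members were lower with both (1.53%). The members past this size with siSE1 were SNORA65 and SNORA54 of the H/ACA class and SNORD59B, SNORD44, SNORD50A and SNORD116-11 of the C/D class. With siSE2 it was SNORA29, whose mean lay at the edge of the filter and passed it only through the control array. The 6 members lower with siSE1 are 5.13% of those tested, near the share of all genes.

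SNORD59B and SNORD44 lay much further below the control with siSE1 than with siSE2. SNORD59B read 5.92, 4.90 and 5.73 in the order control, siSE1, siSE2. It lies in ATP5F1B, which encodes a subunit of the mitochondrial ATP synthase and differed by 0.04 and -0.12. SNORD44 read 7.98, 7.11 and 7.75. The mean differences of -0.61 ± 0.27 and -0.55 ± 0.23 (SE) carry wide errors, and neither passed (limma, adjusted p = 0.283 and 0.249). The next members by gap between the siRNAs were SNORA21, SNORD78, SNORD35A and SNORA65. SNORA21 read 7.99, 7.65 and 8.16, SNORD78 7.96, 7.53 and 8.01, and SNORD35A 9.25, 8.90 and 9.35. All 3 lay below the control with siSE1 and above it with siSE2.

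Among the C/D members lower with both siRNAs, SNORD116-11, SNORD116-26 and SNORD50A ranked first by whichever of their differences is nearer 0; by mean difference SNORD59B was lowest. On the control, siSE1 and siSE2 arrays SNORD50A read 6.59, 5.85 and 6.21, a difference of -0.57 ± 0.17 (SE; limma, adjusted p = 0.141). SNORD104, carried by the noncoding gene SNHG25, read 7.90, 7.45 and 7.61. SNORD81 read 8.41, 7.85 and 8.13. In each the order was control, then siSE2, then siSE1. SNORD45B and SNORD96A differed by -0.31 each on average, without passing. SNORD45B was the exception in order, with 5.34, 5.05 and 5.01, while its host RABGGTB, a prenyltransferase subunit gene, differed by 0.02 and 0.00. SNORD45B passed the filter level of 5.12 only through the control array.

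Fewer C/D members stood higher. The 3 arrays, in the order used above, gave SNORD42A 5.98, 6.24 and 6.51, and SNORD4A 7.52, 8.02 and 7.76. Together with SNORD4B (7.92, 7.95 and 8.28) they lie in RPL23A, a gene of the large ribosomal subunit. All 3 read above the control with both siRNAs, as did RPL23A itself, by 0.26 and 0.23. SNORD30, carried by the noncoding gene SNHG1, read 8.56, 8.85 and 8.88, and SNORD12C, carried by ZFAS1, 7.12, 7.40 and 7.35. None of these 5 passed (limma, adjusted p from 0.240 for SNORD42A to 0.576 for SNORD4B). The remaining members of this rank, SNORD13P3, SNORD53, SNORD28 and SNORD116-28, had mean differences over both siRNAs of 0.07 to 0.16. SNORD53 lies in WDR43, a gene of small-subunit ribosome assembly, which was itself higher, by 0.70 and 0.50.

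Members that share a host were compared within hosts that hold at least 3 tested members, besides SNHG14. GAS5, a noncoding gene that accumulates in growth-arrested cells, carries 7 members, of which 6 were tested. All 6 read below the control with siSE1, from -0.18 (SNORD79) to -0.87 (SNORD44), with a median of -0.48. With siSE2 5 of them did, from -0.28 (SNORD81) to 0.05 (SNORD78), with a median of -0.16. SNORD74 read 10.24 on the control and 9.71 and 10.06 on the siRNA arrays, and SNORD75 7.39, 7.03 and 7.26. All 6 were lower with siSE1 than with siSE2. The seventh, SNORD77, was too dim to test, with 3.73, 3.09 and 3.07.

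RPL13A, another gene of the large ribosomal subunit, carries 4 tested C/D members. SNORD32A, SNORD33, SNORD34 and SNORD35A all read below the control with siSE1 (median -0.27), and 1 of 4 did with siSE2 (median 0.05). SNORD33 was among the brightest members, with 12.12, 12.00 and 12.12. The 3 tested members in RPL3 had medians of -0.10 and -0.09, and the 3 H/ACA members in the noncoding gene SNHG17 of -0.13 and 0.02. The tested members in GAS5 thus lay below the control with siSE1 and those in RPL23A above it.

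**Figure D3:**
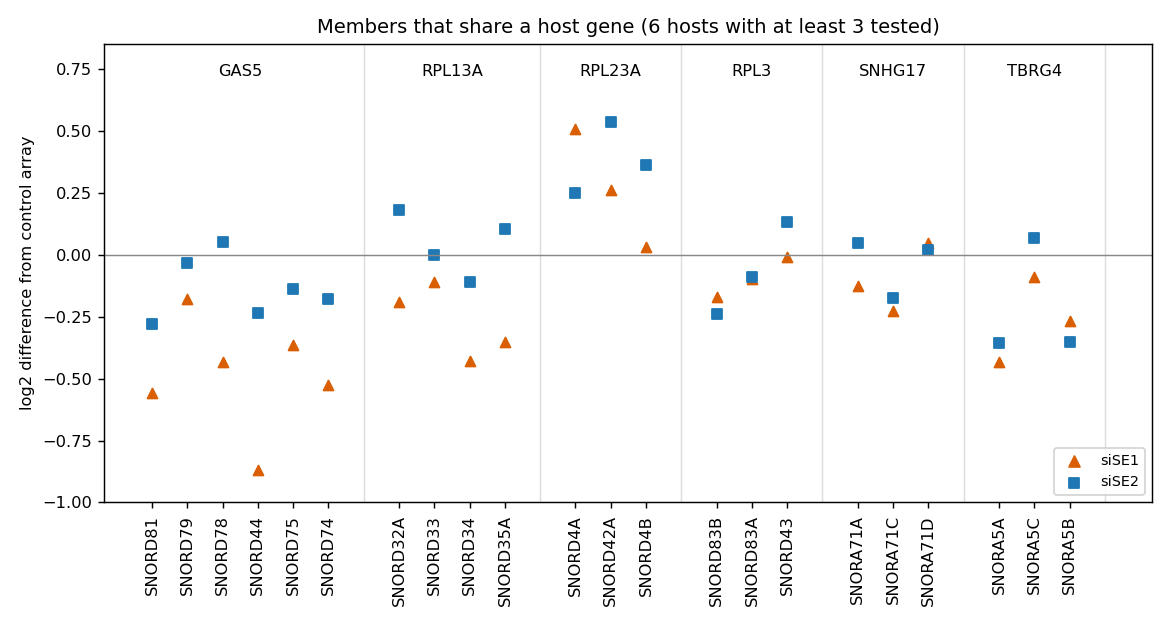
Log2 difference from the control array for siSE1 (triangles) and siSE2 (squares) of tested members in the 6 host genes described, grouped by the gene that holds them, in order along the chromosome, 1 array per siRNA. All 6 members in GAS5 lie below 0 with siSE1, down to -0.87, and all 3 in RPL23A lie above 0 with both siRNAs.

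Across hosts, the differences of members and of their hosts were weakly related. A host measured by a probe set of its own was found for 61 tested members in 46 genes. Over these members the Pearson correlation of member and host difference was 0.054 with siSE1 and 0.13 with siSE2, a description across genes on the same arrays, in which several members share a host. The sign was the same for 36 of 61 members with siSE1 and 40 with siSE2. Member and host differed by at least 1.5-fold for 11 members with siSE1 and 4 with siSE2. The 4 that did so with both were SNORA14A, SNORA5A, SNORA5B and SCARNA4. By kind of host, tested members had siSE1 medians of -0.14 in noncoding genes (34 members), -0.13 in ribosomal protein genes (26 members) and -0.16 in other coding genes (45 members).

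**Figure D4:**
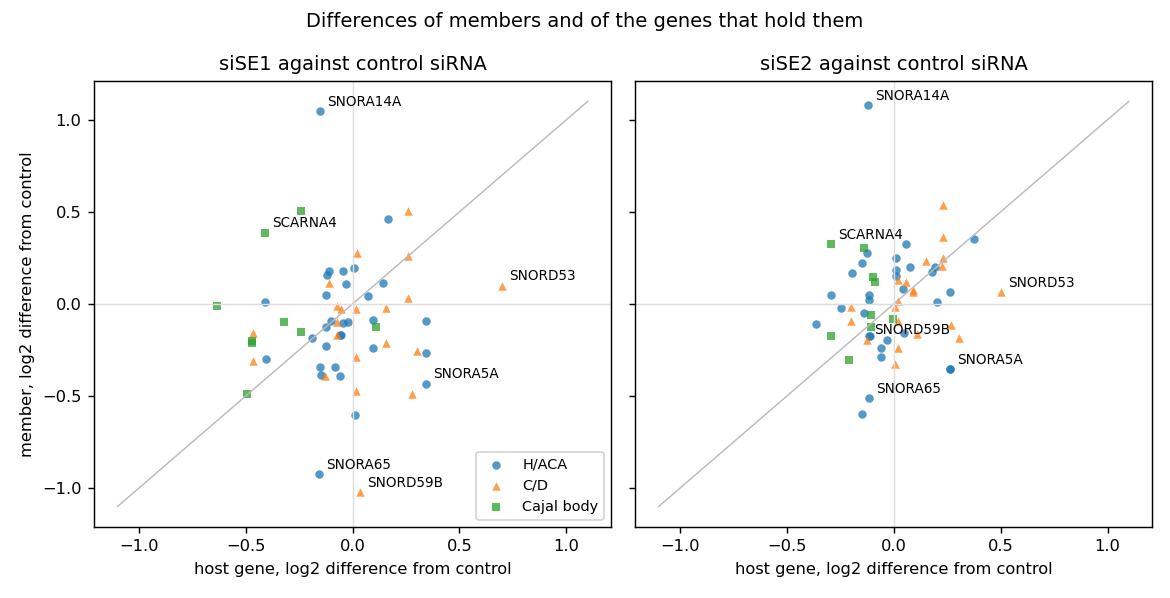
Log2 difference from the control array of each tested member (vertical) against that of the gene that holds it (horizontal), for siSE1 (left) and siSE2 (right), with a line of equal difference. SNORA14A lies 1.20 above its host POR in both, SCARNA4 lies above its host, and SNORA5A lies below its host.

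Among the 13 tested Cajal body RNAs 0 passed (limma), against 0.248% of all genes upward and 0.714% downward. At an unadjusted p under 0.05 (limma), 2 were higher and 0 lower, against 6.46% and 11.3% of all genes. With 13 members these counts are too small to set the class apart from all genes. SCARNA4 read 6.12, 6.50 and 6.44 on the control, siSE1 and siSE2 arrays, a difference of 0.36 ± 0.14 (SE; limma, adjusted p = 0.233). Its host KHDC4, which encodes a splicing cofactor, was lower on both arrays, with differences of -0.41 and -0.30. SCARNA9 read 5.56, 6.06 and 5.86 and stood above its host CEP295 as well, which differed by -0.24 and -0.14. Its probe sets disagreed in size: with siSE1 one went from 5.11 to 5.28 and the other from 6.01 to 6.84.

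On the lower side, SCARNA8 read 6.14 with the control siRNA and 5.65 and 5.97 with siSE1 and siSE2. Its host HAUS6, a subunit gene of the augmin complex of the mitotic spindle, had differences of -0.49 and -0.29. SCARNA17, carried by the noncoding gene SNHG22, read 7.06, 6.71 and 6.91. SCARNA22, in the histone methyltransferase gene NSD2, and SCARNA6, in the autophagy gene ATG16L1, had mean differences of -0.23 and -0.17. SCARNA11 and SCARNA1 had mean differences of 0.12 and 0.01, and the sign of SCARNA1 turned with quantile normalization, equal array medians and cyclic loess. SCARNA11 read 5.04 on the control array, below the filter level of 5.12, and passed the filter only through the siSE1 array, at 5.21. SCARNA12 was the brightest of the class, with 10.96, 10.95 and 11.08, while its host PHB2, which encodes a prohibitin, differed by -0.63 with siSE1 and -0.09 with siSE2.

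The tandem C/D families differed in signal. The SNORD115 and SNORD116 copies lie in SNHG14, the long noncoding host of the imprinted Prader-Willi region, and the SNORD113 and SNORD114 copies in MEG8, in another imprinted region. All 20 SNORD115 members lay below the filter level, with values from 1.77 to 3.55 over the 3 arrays, as did the 2 SNORD113 and 4 SNORD114 members, none of which read above 3.12. SNORD115-4, SNORD115-14, SNORD115-28, SNORD115-2 and SNORD115-34 were the lowest of all 192 members, and SNORD115-4 read 1.85, 1.89 and 1.77. Of the 20 SNORD116 members 15 were above it, and the copies ran from 2.37 to 12.84 on the control array. Probe sets differ in their response, and these copies resemble each other in sequence, so their order does not rank the copies and their separate signals are uncertain.

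The 4 brightest SNORD116 copies differed by less than 0.1 from the control on both siRNA arrays. SNORD116-15, the brightest of all members, read 12.84, 12.84 and 12.81 on the control, siSE1 and siSE2 arrays. SNORD116-20 read 11.60, 11.51 and 11.59, and SNORD116-24 10.96, 11.03 and 10.90. Some dimmer copies read lower with both siRNAs. SNORD116-11 read 5.72, 5.04 and 5.23, a difference of -0.58 ± 0.15 (SE; limma, adjusted p = 0.0940), and SNORD116-26 read 7.46, 6.95 and 7.05, a difference of -0.46 ± 0.14. SNORD116-23 read 8.76, 8.45 and 8.52. SNORD116-6 stood apart with 7.72, 7.76 and 8.09. Over the 15 tested copies the median difference was -0.14 with siSE1 and -0.06 with siSE2. None passed the test over all genes (limma), which 0.714% of all genes passed downward and 0.248% upward. At an unadjusted p under 0.05 (limma), 2 were lower and 0 higher, against 11.3% and 6.46% of all genes. The 2 of 15 that were lower are near the share of all genes.

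**Figure D5:**
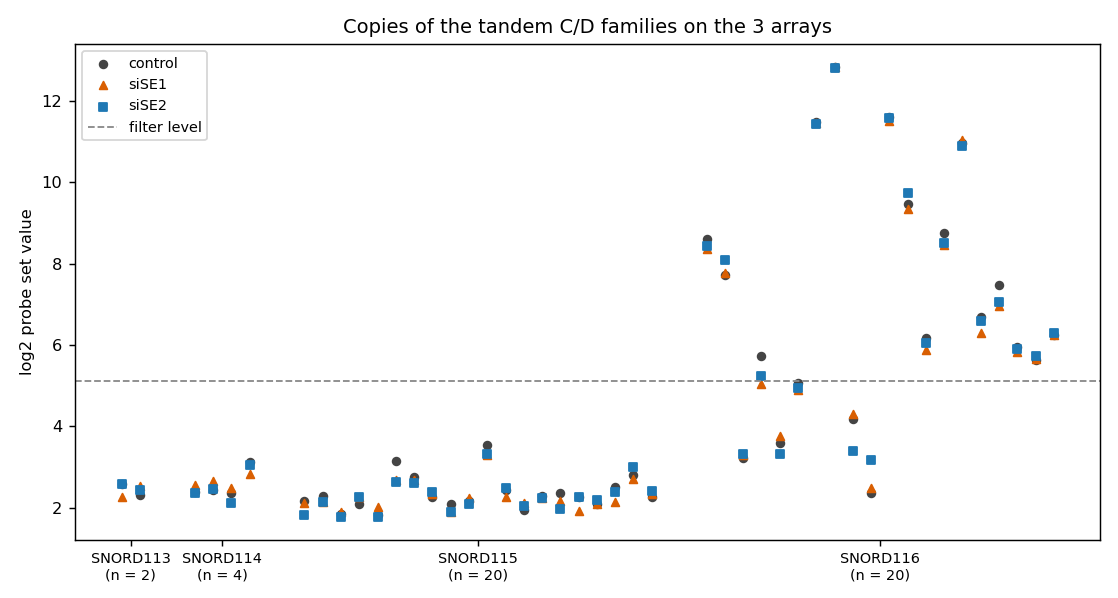
Log2 values of each copy of the 4 tandem C/D families on the control (circle), siSE1 (triangle) and siSE2 (square) arrays, with the filter level of 5.12 as a dashed line. The 20 SNORD115 copies lie between 1.77 and 3.55, while the SNORD116 copies spread up to 12.84. The 3 arrays lie close together for the brightest SNORD116 copies and further apart for some dimmer ones. Below the filter level, SNORD116-16 reads 4.17, 4.29 and 3.39, and SNORD116-18 reads 2.37, 2.49 and 3.17 (control, siSE1, siSE2).

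Among the other bright members, SNORD13 read 12.11 with the control siRNA, then 12.08 and 12.31 with siSE1 and siSE2. Its gene stands alone, with no other gene found around it, and its product guides acetylation of the small-subunit ribosomal RNA. SNORD13P3, a pseudogene copy in KIF9, read 11.87, 11.98 and 12.07, and its signal cannot be separated with certainty from that of SNORD13. SNORA71D, in SNHG17, read 11.57, 11.62 and 11.59. The 75 members below the filter level comprise 18 H/ACA, 54 C/D and 3 Cajal body members. Of these, SNORD77 alone was past 1.5-fold in the same direction with both siRNAs, at the low values given above.

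The proteins that build, process and carry these RNAs were read from lists of genes, and 0 of their 61 tested members passed the test over all genes (limma). At an unadjusted p under 0.05, 1 was higher (6.46% of all genes were) and 8 lower (11.3% of all genes), so the share of lower calls was near that of all genes. Of the C/D particle, FBL differed from the control by -0.32 with siSE1 and -0.07 with siSE2, and NOP58 by -0.13 with each. Of the H/ACA particle, DKC1 differed by -0.07 ± 0.14 (SE), NHP2 by 0.26 ± 0.14, NOP10 by -0.14 ± 0.15 and GAR1 by 0.06 ± 0.14.

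Of 13 assembly factors 11 read below the control with siSE1 (53.2% of all genes did) and 8 with siSE2 (52% of all genes, a share near that of the list), with medians of -0.18 and -0.06. SHQ1, the chaperone that holds DKC1 before assembly, differed by -0.58 with siSE1 and -0.38 with siSE2, on average by -0.48 ± 0.15 (limma, adjusted p = 0.147). RUVBL1, an ATPase of the assembly machinery, and RPAP3, which links it to the chaperone HSP90, had mean differences of -0.36 and -0.35, and TTI1 of -0.25. Among 22 genes of trimming and decay the medians were -0.08 and -0.02. The exosome subunit genes EXOSC8 and EXOSC9 differed by -0.62 ± 0.17 (SE) and -0.44 ± 0.15, C1D, an exosome cofactor, by -0.51 ± 0.14, and DBR1, which opens intron lariats, by -0.40 ± 0.14. EXOSC8 read 7.72, 7.29 and 6.92 (limma, adjusted p = 0.120). TENT4B, a poly(A) polymerase gene named outside the ranking after its values were seen, was the 1 list gene higher at an unadjusted p under 0.05, with a difference of 0.35 ± 0.14 (limma, adjusted p = 0.246).

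Among 14 Cajal body and trafficking genes the medians were -0.07 and 0.03. COIL, which encodes coilin, the scaffold of the Cajal body, differed by 0.27 with siSE1 and 0.23 with siSE2. DDX20, a helicase of the SMN complex, and TGS1, the cap methyltransferase of small RNAs, differed by -0.38 ± 0.15 and -0.29 ± 0.14 (SE), and USPL1 by 0.31 ± 0.15. Of the list of noncoding hosts and related genes, 6 were tested, with medians of -0.02 and 0.10. SNHG17, EPB41L4A-AS1, TAF1D and RMRP had mean differences over both siRNAs of -0.12, 0.15, 0.11 and -0.12. TAF1D codes for a protein, and RMRP is the RNA of the RNase MRP particle. The sign of the difference of SNHG17 turned when its highest probe set was taken in place of the mean. GAS5, SNHG1 and SNHG5 had no probe set that named them alone.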

How the data were processed

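RNA of LNCaP cells was measured on 3 arrays (control 1, siSE1 1, siSE2 1). The authors deposited log2 values for 33297 probe sets, for which the submitters' processing notes name Affymetrix Expression Console; the log2 scale was inferred from the range of 1.43 to 13.9. The algorithm is not given in the sources used here, nor is the build. Values of the 19460 probe sets naming 1 gene were averaged per gene. Genes below the 30th percentile were left out, and both siRNA arrays were tested against the control with limma 3.58.1 (R 4.3.3; lmFit, eBayes, Benjamini-Hochberg over 12892 genes, threshold 0.05), which was tested on simulated data. The number of arrays limits the precision. Host genes are those whose span in RefSeq (GRCh38.p14) holds the member; strand was not used, and 12 members lying in several genes and 2 in none were left out. Of the members, 192 of 192 matched RefSeq by gene identifier. Named are members that pass the fit; per class the 8 (Cajal body 4) higher and the 8 (4) lower with both siRNAs, ranked by whichever difference is nearer 0; the 6 with the largest gap between siRNAs; the 5 brightest and 5 dimmest; their hosts; and up to 4 genes per list. Members and lists were chosen with earlier results of these data known. Sequences of the members were not used here, and some results on host genes are not reported here.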

Additional observations from a re-analysis of the deposited data

Results flagged for a closer look

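A probe set that names SNORA61 together with its noncoding host SNHG12 lay outside the comparisons, which use probe sets naming 1 gene. It drew attention because on the control, siSE1 and siSE2 arrays it read 8.98, 9.61 and 9.82, at least 1.5-fold higher with both siRNAs, a mean log2 difference of 0.74 with no test. Among the 63 distinct probe sets that name a small nucleolar or Cajal body RNA beside other genes it alone was past that size upward with both siRNAs, and 0 were past it downward. Of the other probe sets that name SNHG12, the set naming it with SNORA16A, SNORA61 and SNORA44 together read 7.88, 8.21 and 8.32, also above the control with both siRNAs. The set naming SNORA16A and SNHG12 read 8.36, 7.85 and 8.28, and the set naming SNORA44 and SNHG12 read 6.29, 6.07 and 6.33. The cause was not tested.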

How the results depend on the processing

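No paired analysis was possible because the control group has 1 array, so the groups share fewer than 2 replicate numbers. Leaving out an siRNA array leaves no residual degree of freedom, so no counts of calls were made there; SNORA14A differed by 1.05 to 1.08 (log2). With no filter, 1 gene was higher and 0 lower by limma (1148 and 1503 at an unadjusted p under 0.05), 0 members passed higher (7 higher and 15 lower at an unadjusted p under 0.05), and members past 1.5-fold were 2 higher and 3 lower with siSE2 and 10 lower with siSE1. With the filter at the 50th percentile, 15 genes were higher and 20 lower, 3 members were past 1.5-fold lower with siSE1 and 0 with siSE2, and the Cajal body median with siSE2 was 0.047. Genes higher numbered 63 with quantile normalization, 21 with equal array medians and 52 with an intensity trend, against 32. Members past 1.5-fold lower with siSE2 numbered 0 with quantile normalization and with the highest probe set, where 2 were higher with siSE1. At 2-fold, 1 member was lower with siSE1 and 0 with siSE2. These fold counts at other settings are given without a share over all genes, so they do not compare members with all genes. SCARNA1 turned to -0.038 with quantile normalization, -0.025 with equal array medians and -0.050 with cyclic loess, SNORA71D to -0.0055 with equal array medians, and SNHG17 to 0.072 with the highest probe set. The cause was not tested, beyond the change in genes tested that a filter makes. The C/D median with siSE1 ran from -0.22 with equal array medians to -0.14 with no filter; with the probe sets naming several genes, a choice made after seeing the data, it was -0.16.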

Other observations

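Probe sets that name several genes hold further small RNAs that the comparisons leave out. The copies of SNORD3, the abundant C/D RNA that takes part in cleavage of the ribosomal RNA precursor, share probe sets that read 8.41, 7.88 and 7.94 on the control, siSE1 and siSE2 arrays. The set naming SNORA56 and its host DKC1 read 6.78, 5.77 and 6.21, while DKC1 measured alone read 8.32, 8.23 and 8.26. Sets naming GAS5 with SNORD47, SNORD80 or SNORD76 differed by -0.28, -0.35 and -0.48 with siSE1 and by 0.023, -0.23 and -0.31 with siSE2. Of the 52 distinct sets at or above the filter level, 37 read below the control with siSE1 and 26 with siSE2, against 53.2% and 52% of all genes tested, with medians of -0.13 and -0.01. These values have no test.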
